A study of Rattus norvegicus with 210 samples.

Results

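Gene expression in the mediobasal hypothalamus (MBH) was compared with that in the preoptic area (POA) in juvenile rats that had received no chemical, to describe how these dissected pieces differ before any exposure is considered. The 10 libraries used were those labelled control at postnatal day (PND) 22, 5 from the MBH and 5 from the POA, out of 210 libraries in the whole series. All came from female Sprague-Dawley rats whose dams had been given the vehicle, corn oil, by oral gavage from gestation day 7 until PND 22. The study as a whole sequenced both tissues at 3 ages (PND22, PND42 and PND90) in offspring of dams given vehicle, ketoconazole or diethylstilbestrol. The number in each library's name occurred once in either tissue, so that each MBH library had a POA library of the same number. If this number marks the rat, the 10 libraries come from 5 rats and are not 10 separate animals.

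The MBH holds the arcuate, ventromedial and dorsomedial nuclei. Neurons there sense energy stores and control growth hormone, prolactin and gonadotropin secretion. Behind it lie the tuberomammillary and mammillary nuclei. By the paper's methods, the dissected block ran from ahead of the optic chiasm to the rear edge of the mammillary bodies. It thus took in these nuclei, and the cut that parted the MBH from the POA is not described. The POA lies in front, at the border of the telencephalon, and contains most neurons that produce gonadotropin-releasing hormone (GnRH), along with neurons for thermoregulation, sleep and sexual behaviour. Both are mixtures of neurons, glia, tanycytes and vessels, so a higher level in one piece can mean more cells of a type or more RNA per cell, and these cannot be told apart in bulk tissue.

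Upstream sequences are shown for 4 genes that separated the tissues strongly, 2 higher in the MBH and 2 higher in the POA, so that the text of their promoters stands beside their values. They are the 200 bases before the RefSeq start on build GRCr8, written 5′ to 3′ on the strand of the gene, with capitals marking the letters TAATTA, a core bound by many homeodomain proteins, or AGGTCA, a core bound by many nuclear receptors, on either strand.
Npvf (chr4:81047046-81047245, minus strand): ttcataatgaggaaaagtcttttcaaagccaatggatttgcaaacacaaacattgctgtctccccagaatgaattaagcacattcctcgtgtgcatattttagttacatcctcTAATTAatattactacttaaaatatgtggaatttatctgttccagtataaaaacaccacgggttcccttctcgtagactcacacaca
Ghrh (chr3:166431881-166432080, minus strand): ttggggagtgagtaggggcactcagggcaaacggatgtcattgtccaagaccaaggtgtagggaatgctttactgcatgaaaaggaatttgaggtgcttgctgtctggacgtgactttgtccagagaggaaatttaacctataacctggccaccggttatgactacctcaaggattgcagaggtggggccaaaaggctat
Tbr1 (chr3:66759603-66759802, plus strand): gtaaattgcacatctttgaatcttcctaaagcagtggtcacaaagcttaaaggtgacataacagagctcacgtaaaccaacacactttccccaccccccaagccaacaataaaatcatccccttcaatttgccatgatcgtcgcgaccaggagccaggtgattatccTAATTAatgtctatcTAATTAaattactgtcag
Oxt (chr3:138235554-138235753, plus strand): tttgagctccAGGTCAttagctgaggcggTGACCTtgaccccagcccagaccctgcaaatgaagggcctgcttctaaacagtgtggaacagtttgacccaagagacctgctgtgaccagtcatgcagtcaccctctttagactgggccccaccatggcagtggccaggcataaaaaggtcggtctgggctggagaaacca
The letters TAATTA occurred at 1 place before Npvf and at 2 before Tbr1, AGGTCA occurred at 2 places before Oxt, and Ghrh had neither. Among all 27457 promoters of this length, 3.64% held TAATTA and 11.1% held AGGTCA. Of the 20 genes with the largest tissue difference described further on, 14 could be matched; TAATTA stood in 2 of the 7 on the POA side and in 0 of the 7 on the MBH side. These are matches of letters and show no binding.

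Gene counts summed to 18459642 to 22522907 in the MBH libraries and to 12601314 to 15521703 in those of the POA, so the depth of the 2 tissues did not overlap. A count of 0 over the 4 POA libraries other than replicate 4 allows up to 0.0531 CPM, counts per 1000000, 3 counts of their summed total. Such limits and the intervals of ratios cover counting error only. A level in CPM is a share of all gene counts of that library and takes no account of gene length, so that levels of different genes are not compared.

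One library stood apart. POA replicate 4 carried transcripts of the mammillary nuclei, which lie at the rear of the hypothalamus, far from the POA. Foxb1, a transcription factor of mammillary neurons, was at 9.31, 11.1, 13, 12.7 and 10.1 CPM in the 5 MBH libraries and at 2.92, 3.97, 2.37 and 1.74 CPM in POA replicates 1, 2, 3 and 5. POA replicate 4 had 11 CPM, within the range of the MBH. The reverse held for a gene that marks the POA: Lhx6, a factor of forebrain interneurons, was at 5.13, 4.5, 9.43 and 12.2 CPM in the other POA libraries and at 0.635 CPM in replicate 4, inside the range of 0.325 to 0.743 CPM of the MBH.

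This was measured over many genes by placing each library on a scale from 0, the mean of the POA libraries, to 1, the mean of the MBH libraries, with the library itself and POA replicate 4 left out of the means and of the choice of genes. Over 135 genes with an absolute log2 fold change of at least 2, the median position of POA replicate 4 was 0.943, and 127 of the genes placed it nearer to the MBH. For the other libraries the genes were chosen anew, 105 to 149 of them. The other 4 POA libraries had medians from 0 to 0.0749 and the 5 MBH libraries from 0.896 to 1.06. Across 12938 genes, replicate 4 had a Spearman's rho of 0.99 to 0.992 with the MBH libraries and of 0.981 to 0.982 with the other POA libraries, which among themselves reached 0.986 to 0.994. Its counts differed from each of the 5 MBH PND22 vehicle libraries by a chi-square of at least 9.79 per degree of freedom. The 20 pairs within a tissue, which include those of replicate 4 with the other POA libraries, had 5.94 to 18.7. Tests were therefore made with all 10 libraries and without POA replicate 4. Fold changes and counts of list members at PND22 that are printed without naming a fit come from the fit without replicate 4. For many genes only that fit is printed, and not all of them were called with all 10 libraries.

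**Figure D1:**
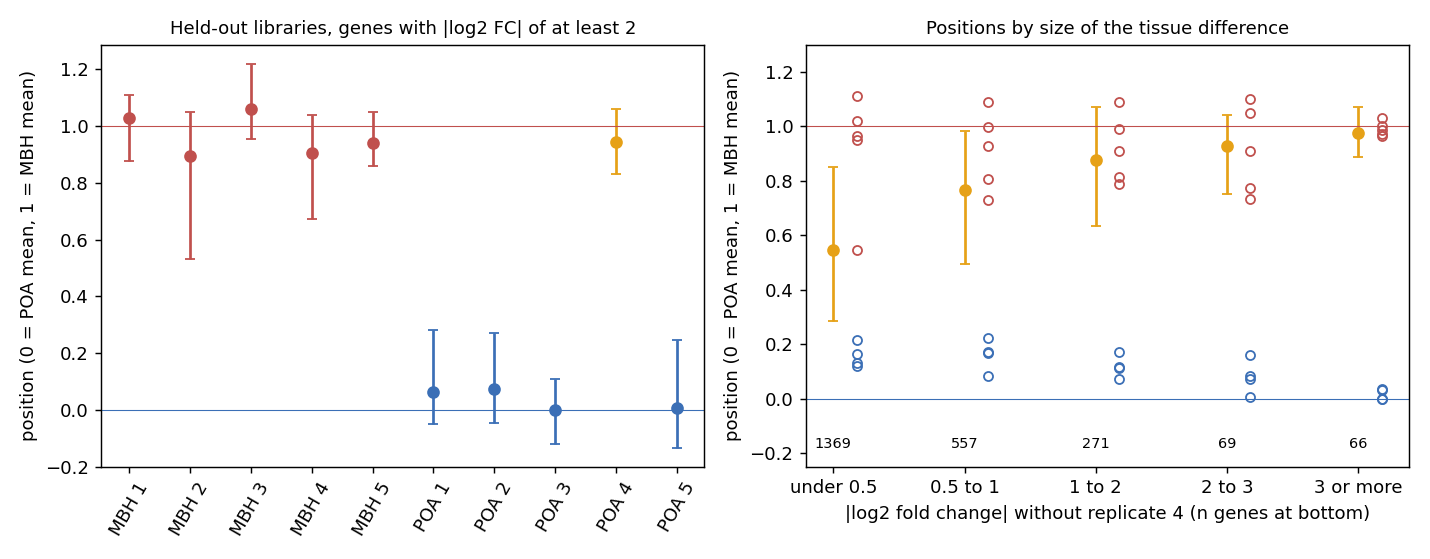
Median position of each library between the POA mean (0) and the MBH mean (1), with bars for the middle 50% of genes; left, the 10 libraries over genes with an absolute log2 fold change of at least 2, each held out of its own scale; right, the same over called genes grouped by the size of the tissue difference, with POA replicate 4 as filled points with bars and its number of genes, and the other libraries as open circles. Replicate 4 lies at 0.943 beside the MBH libraries, and its position falls to 0.546 for the genes with the smallest differences, as that of MBH replicate 2 falls to 0.545.

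With all 10 libraries, edgeR's quasi-likelihood test called 1443 of 14557 genes at an adjusted p-value under 0.05, 633 higher in the MBH (4.35% of genes tested) and 810 higher in the POA (5.56%). Without POA replicate 4 it called 2332 of 14742 genes, 1134 higher in the MBH (7.69%) and 1198 higher in the POA (8.13%). The fits shared 1389 genes, all with the same sign, which is 96.3% of the calls with 10 libraries and 59.6% of the calls without replicate 4. Of 102 genes higher in the MBH by a log2 fold change of at least 2 without replicate 4, 24 were called with all 10 libraries, against 20 of 33 on the POA side. The count with 10 libraries was sensitive to single libraries: it was 594, 487 and 684 without MBH replicates 1, 3 and 5, and 768, 595 and 813 without POA replicates 1, 3 and 5. At an absolute log2 fold change of at least 1, 271 genes were higher in the MBH (1.84%) and 135 in the POA (0.916%) without replicate 4. With all 10 libraries these counts were 80 and 82. The median log2 fold change of all genes was 0.01 in both fits.

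**Figure D2:**
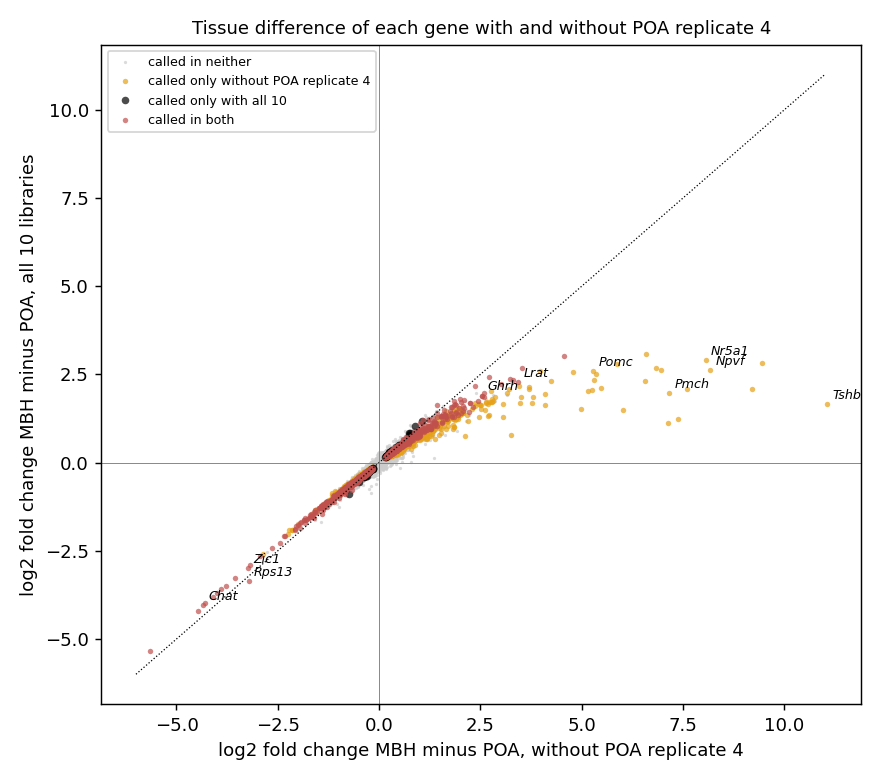
Log2 fold change of each gene, MBH minus POA, without POA replicate 4 (horizontal axis) and with all 10 libraries (vertical axis), coloured by the fit in which the gene was called; the dotted line marks equal values. Genes higher in the MBH fall below the line once replicate 4 is included, while genes higher in the POA stay near it.

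Genes of arcuate neurons were higher in the MBH. Of 18 tested members of a list of 19, 13 were higher in the MBH and 1 in the POA without replicate 4, with a median log2 fold change of 1.29. With all 10 libraries, 4 were called, all higher in the MBH. Pomc, the precursor of the satiety peptide α-MSH, was at 45.6, 46.1, 55.4, 30.8 and 27.3 CPM in the MBH and at 0.947, 1.3, 0.593 and 1.22 CPM in POA replicates 1, 2, 3 and 5. Replicate 4 of the POA had 30 CPM, and the other 4 lay far below every MBH library. The log2 fold change was 5.29 (SE 0.30, adjusted p = 2.3e-06) without replicate 4 and 2.59 (SE 0.98, adjusted p = 0.13) with it.

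Agrp, the appetite-driving antagonist of melanocortin receptors, was at 14.6, 16.6, 15.8, 17.3 and 11.2 CPM in the MBH, at 1.34, 0.305, 0.659 and 0.773 CPM in the 4 POA libraries and at 12.1 CPM in replicate 4 (log2 fold change 4.25, SE 0.26, adjusted p = 4.4e-07 without replicate 4, and 2.31, adjusted p = 0.11 with it). Npy, the peptide that the same neurons release, was listed at 0 in all 10 libraries, which is no measure of its absence from the tissue. Cartpt, another anorexigenic peptide, was at 79.4 to 97.9 CPM in the MBH and 5.03 to 15.2 CPM in the 4 POA libraries (log2 fold change 3.07, SE 0.25). Ghrh, the hypothalamic releaser of growth hormone, was one of the few called in both fits. It was at 4.87, 7.36, 5.94, 4.77 and 4.13 CPM in the MBH and at 1.26, 0.763, 0.659, 3.57 and 0.902 CPM in POA replicates 1 to 5, so that all 5 POA libraries lay below the MBH. Its log2 fold change was 2.55 (SE 0.25, adjusted p = 2.2e-05) without replicate 4 and 1.90 (SE 0.39, adjusted p = 0.015) with it.

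Tbx3, a transcription factor of arcuate neurons, was higher in the MBH by 2.63 (SE 0.22, adjusted p = 6.2e-06), and Nr0b1, a nuclear receptor of the hypothalamus and pituitary, by 2.25 (SE 0.35, adjusted p = 0.00087) on the log2 scale without replicate 4. Slc6a3, the dopamine transporter, was uneven within the MBH, with 4.05, 4.14, 19.6, 14.1 and 5.73 CPM, against 0.129 to 1.03 CPM in the 4 POA libraries (log2 fold change 3.96, SE 0.78, adjusted p = 0.011). The receptors for leptin (Lepr, 1.19, SE 0.34) and ghrelin (Ghsr, 1.19, SE 0.29) were also higher in the MBH, and with the number that the labels give both tissues of a rat as a block they did not pass (adjusted p = 0.087 and 0.068). Prlr, the prolactin receptor, went the other way, with 2.22 to 3.62 CPM in the MBH and 3.41 to 6.1 CPM in the 4 POA libraries (log2 fold change -0.74, SE 0.22, adjusted p = 0.035, and 0.05 with the block), and the groups overlapped. Gal and Sst did not pass the test (log2 fold change 0.11, SE 0.17, and 0.02, SE 0.35).

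The peptides that set GnRH release did not all follow the arcuate pattern. Kiss1, whose product kisspeptin excites GnRH neurons, was at 2.61, 2.74, 1.3, 1.25 and 1.91 CPM in the MBH and at 1.89, 0.229, 0.527 and 0.322 CPM in the 4 POA libraries, with 1.43 CPM in replicate 4. The tissues overlapped through POA replicate 1, and the difference did not pass the test (log2 fold change 1.39, SE 0.50, adjusted p = 0.08). Tac3, the neurokinin B gene of the same arcuate neurons, was at 14.1 to 17.8 CPM in the MBH and 14.9 to 22.8 CPM in the 4 POA libraries (log2 fold change -0.32, SE 0.12, adjusted p = 0.098). Pdyn, which encodes dynorphin, was at 136 to 199 CPM in the MBH and 21.8 to 43.1 CPM in the 4 POA libraries, a log2 fold change of 2.36 (SE 0.20, adjusted p = 9.8e-05) that was 1.68 (adjusted p = 0.061) with replicate 4. Over the 20 genes of the GnRH secretion list, 4 were higher in the MBH and 4 in the POA without replicate 4, and 1 in the POA with it.

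Npvf and Gnrh1 stood at opposite ends of that list. Npvf, the precursor of the RFamide peptides that restrain GnRH neurons and made in the dorsomedial nucleus, was at 48.5, 53.5, 42.6, 41 and 37.7 CPM in the MBH and at 0.316, 0.0763, 0.132 and 0.0644 CPM in the 4 POA libraries. Replicate 4 had 35.9 CPM. The log2 fold change was 8.18 (SE 0.23, adjusted p = 8.6e-11) without replicate 4 and 2.62 (SE 1.21, adjusted p = 0.21) with it. Gnrh1, the GnRH gene, was at 1.45, 1.83, 0.836, 0.379 and 0.844 CPM in the MBH, at 3.47, 4.12, 5.21 and 7.86 CPM in the 4 POA libraries and at 0.794 CPM in replicate 4. Its difference passed in both fits (log2 fold change -2.33, SE 0.36, adjusted p = 0.0011 without replicate 4, and -2.07, adjusted p = 0.032 with it). With all 10 libraries and no filter on low counts, the adjusted p was 0.061. Kiss1r, the kisspeptin receptor, did not pass (-0.24, SE 0.17).

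Genes of the ventromedial nucleus were higher in the MBH for 8 of 10 members without replicate 4 (median 0.93) and for 2 with it. Nr5a1, the transcription factor SF-1 that defines this nucleus in the brain, had 1188 counts over the 5 MBH libraries and 2 over the 4 POA libraries, a ratio of 329 per read counted (95% interval 91 to 2720). In the MBH it was at 7.8 to 15 CPM, and POA replicate 4 had 7.78 CPM. Sox14, a transcription factor, was at 3.15 to 6.23 CPM in the MBH and 0.659 to 1.37 CPM in the 4 POA libraries (log2 fold change 2.09, SE 0.28, adjusted p = 0.00028) and was also called with all 10 libraries (1.54, adjusted p = 0.025). Adcyap1, the gene of the peptide PACAP, was higher in the MBH by 1.09 (SE 0.14), Bdnf, a neurotrophin, by 0.96 (SE 0.12) and Tac1, the precursor of substance P, by 0.90 (SE 0.08) on the log2 scale. Tac1 was called with all 10 libraries too (0.75, SE 0.12, adjusted p = 0.0093).

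Peptides of the dorsomedial and lateral hypothalamus differed widely between the tissues. Pmch, the gene of melanin-concentrating hormone, was at 823, 1060, 1100, 1570 and 1160 CPM in the MBH and at 6.79, 23.8, 1.65 and 0.387 CPM in the 4 POA libraries, which differed among themselves by far more than the MBH libraries did. Replicate 4 of the POA had 1400 CPM, above 4 of the 5 MBH libraries. Hcrt, which encodes the arousal peptides called orexins, was at 23.5, 35.1, 29.6, 39.8 and 32.3 CPM in the MBH, at 0.868, 0.991, 0.725 and 0.258 CPM in the 4 POA libraries and at 34.5 CPM in replicate 4. Log2 fold changes were 7.15 (SE 0.87, adjusted p = 0.0022) for Pmch and 5.48 (SE 0.26, adjusted p = 1.3e-07) for Hcrt without replicate 4, and 1.97 (adjusted p = 0.50) and 2.11 (adjusted p = 0.26) with it. Of the 8 genes of this list, 4 were higher in the MBH and 1 in the POA without replicate 4, and 0 and 1 with it. The 1 was Lhx9, a transcription factor also active in orexin neurons, at 0.371 to 1.3 CPM in the MBH and 1.26 to 3.23 CPM in the 4 POA libraries (log2 fold change -1.82, SE 0.37, adjusted p = 0.0055). Trh, the thyrotropin-releasing hormone, did not pass the test (-0.51, SE 0.29, adjusted p = 0.29).

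All 7 tested mammillary genes were higher in the MBH without replicate 4, with a median log2 fold change of 7.14, and 0 of 7 were called with it. The median rests on genes with few or no POA counts, whose fitted fold changes depend on the prior count. Lmx1a, which specifies mammillary neurons, was at 2.46, 3.44, 14.3, 20.1 and 14.5 CPM in the MBH and 0.473 to 0.857 CPM in the 4 POA libraries, so MBH replicates 1 and 2 held less of it than replicates 3, 4 and 5. Nkx2-4 had 140 counts in the MBH and 0 in the 4 POA libraries, at least 25.9-fold higher, and Lmx1b had 101 and 0, at least 18.7-fold higher, both against a floor of 3 counts over the 4 libraries. The summed level of the 8 mammillary genes was 21.8 to 61.2 CPM in the MBH, 2.64 to 4.5 CPM in the 4 POA libraries and 53.3 CPM in replicate 4.

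Histamine neurons of the tuberomammillary nucleus gave 4 of 5 genes higher in the MBH without replicate 4 and 1 with it. Hdc, which makes histamine, was at 139, 90.9, 177, 115 and 112 CPM in the MBH, at 2.13, 4.19, 3.76 and 1.87 CPM in the 4 POA libraries and at 98.9 CPM in replicate 4 (log2 fold change 5.36, SE 0.30, adjusted p = 1.1e-05 without replicate 4, and 2.51, adjusted p = 0.17 with it). Slc18a2, the vesicular monoamine transporter, was higher by 2.49 (SE 0.21), Ada, adenosine deaminase, by 2.51 (SE 0.22) and Maob, monoamine oxidase B, by 1.43 (SE 0.10) on the log2 scale.

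**Figure D3:**
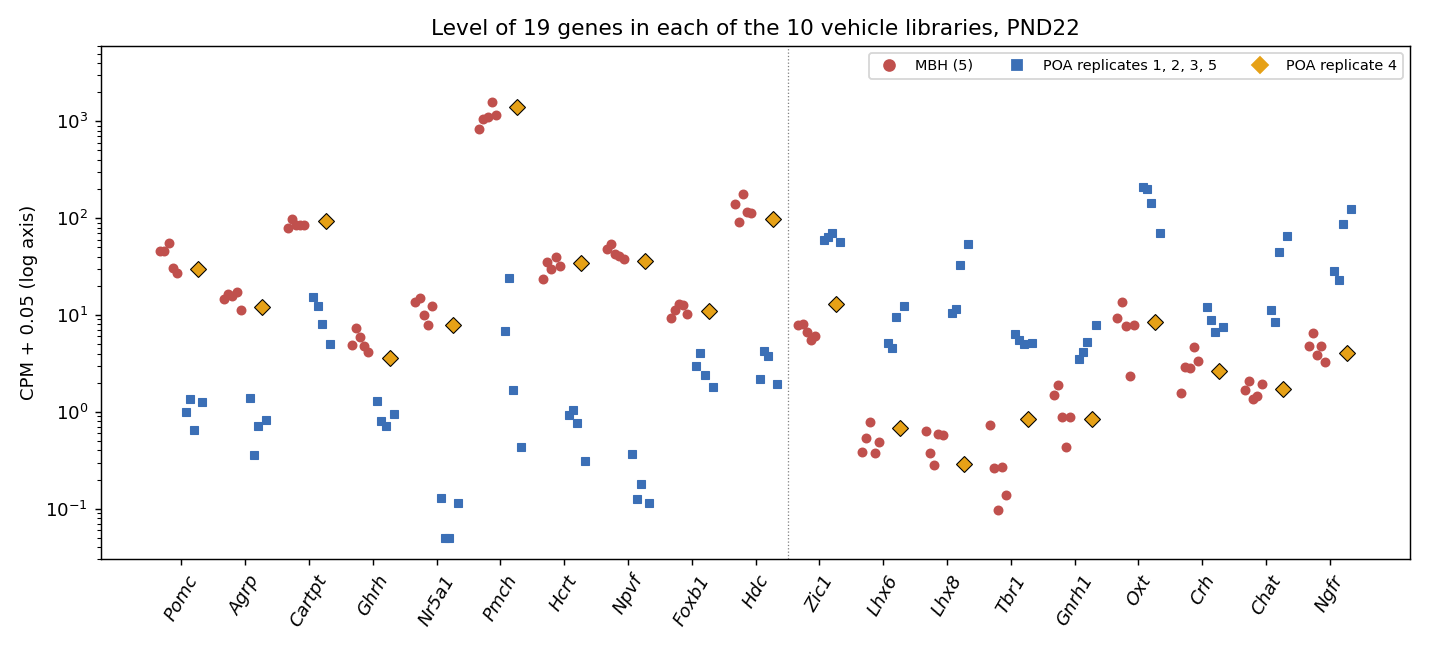
Level in CPM plus 0.05 on a log axis for 19 genes in each library, with MBH libraries as circles, POA replicates 1, 2, 3 and 5 as squares and POA replicate 4 as a diamond. To the left of the dotted line are genes higher in the MBH and to the right genes higher in the POA; the diamond lies with or near the circles on both sides, and Zic1 and Tbr1 lie slightly above them.

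On the POA side, transcription factors of the telencephalon and of inhibitory neurons stood out. Of the 35 tested patterning factors, 7 were higher in the MBH and 16 in the POA without replicate 4 (median log2 fold change -0.44), and 1 and 13 of 33 with all 10 libraries. Zic1, a factor of the septum and preoptic region, was at 7.77, 8, 6.59, 5.47 and 6.08 CPM in the MBH and at 59.2, 63.5, 69.9 and 56.3 CPM in the 4 POA libraries. Replicate 4 had 12.8 CPM, higher than every MBH library and far below the other POA libraries. The log2 fold change was -3.24 (SE 0.11, adjusted p = 4.6e-10), and -2.99 (adjusted p = 0.0094) with all 10.

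Zic4 (-2.93, SE 0.17) and Zic2 (-1.70, SE 0.23) followed Zic1. Lhx6, whose levels are given above, had a log2 fold change of -4.09 (SE 0.35, adjusted p = 1e-05), and -3.80 (adjusted p = 0.011) with all 10. Lhx8, which specifies forebrain cholinergic neurons, was at 10.4, 11.4, 32.4 and 54.6 CPM in the 4 POA libraries and at most 0.579 CPM in the MBH (log2 fold change -5.98, SE 0.69, adjusted p = 0.0012). With all 10 libraries it did not pass the filter on low counts. Tbr1, a factor of glutamatergic neurons of the forebrain, was at 6.39, 5.49, 4.94 and 5.15 CPM in the 4 POA libraries and at most 0.676 CPM in the MBH (-4.48, SE 0.41, adjusted p = 1.3e-05). The factors of GABA neurons Dlx5 (-1.60, SE 0.19) and Dlx1 (-1.41, SE 0.13) were higher in the POA and were called in both fits, Dlx1 at an adjusted p of 0.056 with all 10 and the block.

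Some patterning factors were higher in the MBH. Nkx2-1, which specifies the ventral hypothalamus, was at 23.9 to 29.9 CPM in the MBH, 9 to 15 CPM in the 4 POA libraries and 25.8 CPM in replicate 4 (log2 fold change 1.15, SE 0.13, adjusted p = 9.3e-05). Isl1, which is needed for Pomc neurons, was higher by 0.90 (SE 0.16), and this was the only patterning factor called on the MBH side with all 10 libraries (0.72, adjusted p = 0.038, 0.059 without the filter on low counts and 0.099 with the block). Irx3 was higher by 1.82 (SE 0.34, adjusted p = 0.0032) without replicate 4 on the log2 scale.

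The list of preoptic neurons was mixed, with 6 of 16 genes higher in the POA and 1 in the MBH without replicate 4 (median -0.42), and 4 and 0 of 15 with it. Of the 6, Gnrh1, Zic1, Zic2, Lhx6 and Lhx8 have been given above. Calcr, the calcitonin receptor, was at 200 to 263 CPM in the MBH and at 418, 356, 257 and 305 CPM in the 4 POA libraries (log2 fold change -0.61, SE 0.12, adjusted p = 0.0087), with POA replicate 3 inside the MBH range. Moxd1, a marker of a sexually dimorphic preoptic group, did not pass (0.06, SE 0.21). Synpr, a synaptic vesicle protein, went against the list, with 99.4 to 123 CPM in the MBH, 40.9 to 54.1 CPM in the 4 POA libraries and 106 CPM in replicate 4 (log2 fold change 1.24, SE 0.09, adjusted p = 2.1e-06).

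Genes of septal and basal forebrain cholinergic neurons were higher in the POA for 8 of 9 members without replicate 4 (median -3.56), and Dlk1 was higher in the MBH. With all 10 libraries 4 of 7 were called. Chat, which makes acetylcholine, was at 1.64, 2.04, 1.3, 1.41 and 1.91 CPM in the MBH and at 11.3, 8.47, 44.8 and 65.8 CPM in POA replicates 1, 2, 3 and 5, with 1.67 CPM in replicate 4. POA replicates 3 and 5 thus held several times more of it than replicates 1 and 2. The log2 fold change was -4.35 (SE 0.71, adjusted p = 0.0069) without replicate 4 and -4.05 (SE 0.95, adjusted p = 0.036) with it. Slc18a3, the vesicular acetylcholine transporter whose RefSeq start lies 602 bases from that of Chat on chromosome 16 and on the same strand, was at 7.73, 5.87, 23.8 and 30.5 CPM in the 4 POA libraries and at most 2.09 CPM in the MBH (-3.56, SE 0.58, adjusted p = 0.0053). Strand use in counting and the treatment of overlapping genes are not given in the sources used here, so reads of such neighbours may be shared.

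Ngfr, a receptor for neurotrophins on these neurons, showed the same split, with 28.2 and 22.7 CPM in POA replicates 1 and 2 and 86.1 and 123 CPM in replicates 3 and 5, against 3.24 to 6.44 CPM in the MBH (-3.89, SE 0.60, adjusted p = 0.0055, and 0.084 with the block). Slc10a4, a vesicular protein of cholinergic and monoaminergic neurons, was at 20.1, 18.6, 45.3 and 57 CPM in the 4 POA libraries and 1.66 to 3.47 CPM in the MBH (-3.78, SE 0.42, adjusted p = 0.00083). The summed level of the cholinergic list was 196, 158, 415 and 546 CPM in these POA libraries and 107 to 142 CPM in the MBH. This sum includes Dlk1, which was higher in the MBH, and is no measure of cholinergic genes alone.

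Oxt and Crh, peptides of neurosecretory neurons, were higher in the POA, and the POA libraries did not lie in the order seen for the cholinergic genes. Oxt, oxytocin, was at 9.31, 13.6, 7.66, 2.28 and 7.81 CPM in the MBH and at 210, 198, 142 and 70.5 CPM in POA replicates 1, 2, 3 and 5, with 8.33 CPM in replicate 4. The groups did not overlap without replicate 4, and the log2 fold change was -4.29 (SE 0.48, adjusted p = 0.0014), or -3.99 (SE 0.82, adjusted p = 0.025) with all 10. Avp, vasopressin, was at 99.6, 72.4, 40.5 and 17.8 CPM in the same POA libraries and 8.78 to 42.6 CPM in the MBH, overlapped and did not pass (-1.23, SE 0.56, adjusted p = 0.19). Crh, corticotropin-releasing hormone, was at 6.59 to 12.1 CPM in the 4 POA libraries and 1.5 to 4.66 CPM in the MBH (-1.57, SE 0.27, adjusted p = 0.0024).

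Ucn3, the stress peptide urocortin 3, was at 9.47, 15.8, 7.18 and 5.22 CPM in the 4 POA libraries and at most 0.869 CPM in the MBH (-3.99, SE 0.36, adjusted p = 2.6e-05). Vip, a peptide of the suprachiasmatic nucleus, was at 22.6, 11.2, 7.71 and 3.99 CPM in the 4 POA libraries and 0.676 to 4.09 CPM in the MBH (-2.24, SE 0.58, adjusted p = 0.034, and 0.19 with the block), and overlapped through POA replicate 5. Grp, another peptide of that nucleus, did not overlap, with 4.1 to 5.28 CPM against 1.55 to 2.06 CPM (-1.41, SE 0.18, adjusted p = 0.00019). Of 9 genes of the paraventricular and supraoptic list, 3 were higher in the POA and 1 in the MBH without replicate 4, and 3 and 0 with it. For the suprachiasmatic list it was 2 and 0 of 7, and 1 and 0 with replicate 4.

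The balance of transmitter genes differed between the pieces. Slc32a1, the vesicular GABA transporter, was at 94.1, 98.9, 76.7, 102 and 88 CPM in the MBH and at 167, 174, 203 and 209 CPM in the 4 POA libraries, with 103 CPM in replicate 4 (log2 fold change -1.08, SE 0.09, adjusted p = 1.2e-05, and -0.94, adjusted p = 0.015 with all 10, or 0.074 with all 10 and the block). Gad2, a GABA-synthesizing enzyme, was higher in the POA by a log2 fold change of -0.97 (SE 0.11) and Gad1 by -0.59 (SE 0.12). Slc17a6, the vesicular glutamate transporter of hypothalamic neurons, was at 361, 368, 392, 429 and 398 CPM in the MBH and at 249, 220, 208 and 146 CPM in the 4 POA libraries, with 377 CPM in replicate 4 (0.88, SE 0.13, adjusted p = 0.0013, and 0.66, adjusted p = 0.077 with all 10). Among 14 GABA-A receptor subunits, 5 were higher in the POA, and Gabra5 was higher in the MBH (0.67, SE 0.06, adjusted p = 1.3e-05).

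Receptors of melanocortins differed in opposite directions. Mc3r, the receptor carried by arcuate neurons, was at 6.99 to 8.84 CPM in the MBH and at 5.76, 2.9, 3.43, 4.6 and 3.09 CPM in the 5 POA libraries (log2 fold change 1.03, SE 0.19, adjusted p = 0.0026, and 0.97, adjusted p = 0.0094 with all 10). Mc4r, the receptor of their targets, was at 1.86 to 3.17 CPM in the MBH and at 5.13, 5.41, 6.2, 3.49 and 5.67 CPM in the POA (-1.06, SE 0.18, adjusted p = 0.0017, and -0.95, adjusted p = 0.014 with all 10). For both genes all 5 POA libraries lay on one side of all 5 MBH libraries. Tacr1, the receptor of substance P, was higher in the POA (-1.68, SE 0.21), as were the opioid receptors Oprm1 (-0.97, SE 0.12) and Oprk1 (-0.50, SE 0.10). Over 31 neuropeptide receptors, 7 were higher in the MBH and 9 in the POA without replicate 4, and 2 and 5 of 30 with it.

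Esr1, estrogen receptor alpha, was at 20, 17.9, 16, 15.3 and 16.1 CPM in the MBH and at 35.8, 31.3, 21.8 and 24.4 CPM in the 4 POA libraries, with 13 CPM in replicate 4, the lowest of all 10. Its log2 fold change was -0.77 (SE 0.13, adjusted p = 0.0016) without replicate 4 and -0.61 (SE 0.22, adjusted p = 0.10) with it. Esr2, estrogen receptor beta (-1.11, SE 0.30, adjusted p = 0.022, and 0.053 with the block, with overlapping groups), and Cyp19a1, aromatase (-0.81, SE 0.21, adjusted p = 0.02, and 0.078 with the block), were the others called among 13 steroid receptors and enzymes, and 0 of 13 were called with all 10. The progesterone receptor Pgr did not pass (-0.16, SE 0.13).

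Tanycytes, the radial glia that line the floor of the third ventricle, gave 6 of 9 genes higher in the MBH and 0 in the POA without replicate 4 (median 1.27), and 4 of 8 with it. Crym, which binds thyroid hormone in the cell, was at 40.3, 45.1, 32.5, 30.2 and 31.6 CPM in the MBH and at 5.05, 5.87, 7.51 and 4.77 CPM in the 4 POA libraries, with 25.1 CPM in replicate 4 (2.58, SE 0.16, adjusted p = 4.8e-07, and 1.87, adjusted p = 0.039 with all 10, or 0.069 with all 10 and the block). Dio2, the enzyme that activates thyroid hormone, was higher by 1.81 (SE 0.23) and Scn7a by 1.81 (SE 0.16), both called in both fits, though with all 10 the adjusted p was 0.071 for Dio2 and 0.085 for Scn7a without the filter on low counts, and 0.074 for Scn7a with the block. Rax, a tanycyte transcription factor, had 96 counts in the MBH and 0 in the 4 POA libraries, at least 17.7-fold higher.

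Other cell types are set beside the shares of all genes called without replicate 4, 7.69% higher in the MBH and 8.13% higher in the POA. Calls lay above the share of their direction in several lists, among them those of astrocytes, immature neurons and vessels, though these lists are short. Ependymal genes were higher in the MBH for 2 of 7 and choroid plexus genes for 2 of 6. Of 8 genes of oligodendrocyte precursors, 1 was higher in the POA. Of the vessel genes, 1 of 7 was called, Slco1c1, a thyroid hormone transporter of brain vessels, at 99.5 to 113 CPM in the MBH, 51.5 to 58.3 CPM in the 4 POA libraries and 106 CPM in replicate 4 (0.94, SE 0.06, adjusted p = 4.4e-07). Astrocyte genes were higher in the MBH for 3 of 9, among them Aldh1l1 (0.42, SE 0.11) and Slc6a11 (0.33, SE 0.07), and none of 10 oligodendrocyte, 8 microglial, 5 blood and 10 immediate early genes was called in either edgeR fit, while Mbp, the myelin basic protein gene, ranged from 4810 to 7680 CPM in the MBH and from 5060 to 10900 CPM in the 4 POA libraries. Of 8 markers of immature and growing neurons, 3 were higher in the POA, among them Dcx (-0.33, SE 0.08) and Sox11 (-0.91, SE 0.19), and 5 were not called, with a median of -0.16.

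Hormone subunits of the pituitary were present in the MBH. Cga, the common subunit of glycoprotein hormones, was at 74.6, 41.1, 82.7, 21 and 61.7 CPM in the MBH, at 39.6 CPM in POA replicate 4 and at no more than 0.229 CPM in the others (log2 fold change 9.45, SE 0.86, adjusted p = 0.00039). Tshb, the thyrotropin subunit, had 1591 counts in the MBH and 0 in the 4 POA libraries, at least 294-fold higher, with 24.4 CPM in replicate 4. Both are genes of the pars tuberalis, the part of the pituitary attached to the floor of the MBH, and Prl, the defining gene of lactotrophs, was at 0 in all 10 libraries. Meningeal genes moved with them within the MBH: their summed level was 501, 770 and 322 CPM in replicates 1, 3 and 5 and 120 and 174 CPM in replicates 2 and 4, with 0 of 7 called between tissues. Whether adhering tissue contributes to these values was not tested.

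**Figure D4:**
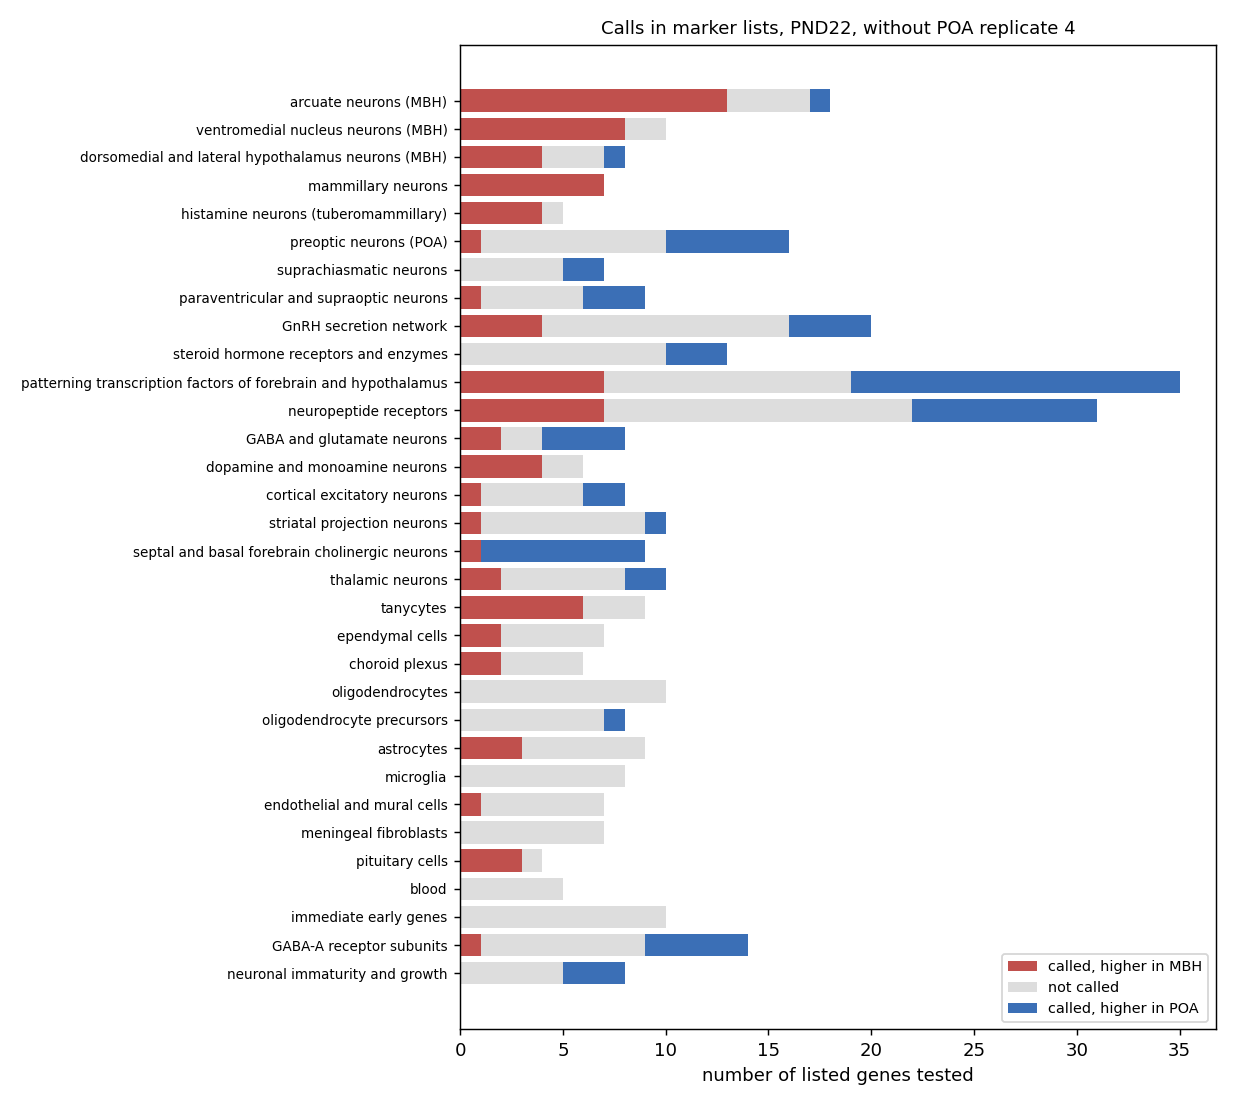
Number of tested genes in each of 32 marker lists that were called higher in the MBH (red), called higher in the POA (blue) or not called (grey) without POA replicate 4. Arcuate, ventromedial, mammillary, histamine and tanycyte lists are mostly red, and the cholinergic list is mostly blue.

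By rule, the 10 genes in each direction with the largest difference that had a gene symbol, averaged 1 or more in log2 CPM, were called with the same sign in both fits and did not overlap without replicate 4 are named. On the MBH side they were Lrat (3.44, SE 0.41), Tll2 (3.00, SE 0.30), Crym, Ghrh, Stra6 (2.53, SE 0.17), Arsi (2.43, SE 0.43), Sox14, Epcam (2.06, SE 0.27), Dkk2 (2.03, SE 0.18) and Smyd1 (1.99, SE 0.32) as log2 fold changes. Stra6 carries retinol into cells and Lrat stores it as an ester. Stra6 was at 20.9, 18.8, 17.8, 14.2 and 15.5 CPM in the MBH, at 2.6, 2.59, 2.37 and 4.06 CPM in the 4 POA libraries and at 11.3 CPM in replicate 4. On the POA side 9 of the 10 are given, Tbr1, Chat, Oxt, Lhx6, Ucn3, Ngfr, Slc10a4, Slc18a3 and Zic1. With all 10 libraries and the block, Lrat, Crym, Arsi, Chat, Ngfr and Slc10a4 did not pass, at adjusted p-values of 0.064, 0.069, 0.11, 0.093, 0.15 and 0.082.

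Over called genes with an absolute log2 fold change of at least 3, the median position of POA replicate 4 was 0.975 and 65 of 66 genes placed it nearer to the MBH. The median fell to 0.929 for differences of 2 to 3, 0.876 for 1 to 2, 0.765 for 0.5 to 1 and 0.546 for less than 0.5, where 744 of 1369 genes placed it nearer to the MBH and 625 nearer to the POA. MBH replicate 2, held out in the same way, fell from 0.973 to 0.545 over these bins, while the other 4 MBH libraries had medians of 0.949 to 1.11 in the bin of less than 0.5. The 5 genes that follow were chosen after their values were seen and lay the other way. Celf4, an RNA-binding protein of neurons, was at 65.3, 100, 73, 83.4 and 60 CPM in the MBH and at 120, 120, 131, 121 and 105 CPM in POA replicates 1 to 5, so replicate 4 lay with its label (position -0.03).

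Rps28, a ribosomal protein gene, was at 39.5 to 53.8 CPM in the MBH and at 27.9, 30.4, 33, 30.4 and 31.4 CPM in the 5 POA libraries (log2 fold change 0.65, SE 0.09, adjusted p = 0.0065 with all 10). Nudc (position -0.26), Ubald2 (0.18) and Cdk5r2 (0.09) also placed replicate 4 with the POA. With all 10 libraries their log2 fold changes were -0.59, -0.70 and -0.61, and all 5 POA libraries lay above all 5 MBH libraries. These genes were not stable markers of region. At PND42 the log2 fold change was 0.10 for Celf4, 0.07 for Rps28, 0.33 for Nudc, 0.02 for Ubald2 and -0.01 for Cdk5r2. None passed edgeR's test there (adjusted p = 0.28 to 0.98). Rps13, another ribosomal protein gene, was at 9.7, 10.2, 12.3 and 11.1 CPM in POA replicates 1, 3, 4 and 5, and at 0.763 CPM in POA replicate 2 and 0.724 to 1.03 CPM in the MBH. Ribosomal protein genes have near-identical copies, so these 2 values are uncertain.

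Whether the tissue difference was particular to PND22 was tested against the vehicle libraries of later ages, which share the PND22 libraries. At PND42, 0 genes of 15015 passed for the interaction of tissue and age in edgeR's test (0% of genes tested, with 1599 at an unadjusted p under 0.05 and 56 called by DESeq2), and 6 of 15174 without POA replicate 4 (0.0395%). With POA replicate 4 kept, the count was 50 without MBH replicate 5 of PND42, 13 without MBH replicate 2 of PND22 and 1 without MBH replicate 4 of PND22. The 6 genes called without POA replicate 4 were Zic4, Zic1, Ucn3, Oxt, Maob and AC128207.1. Oxt was at 67.5 to 152 CPM in the MBH libraries of PND42 and 40.5 to 178 CPM in those of the POA, so that the log2 fold change was -4.29 at PND22 and -0.13 (SE 0.38) at PND42, an interaction of -4.17 (SE 0.62, adjusted p = 0.018). Zic1 was at 13.2 to 31.4 CPM in the MBH at PND42, above the 5.47 to 8 CPM of PND22, and at 35.3 to 53.5 CPM in the POA (interaction -2.21, SE 0.30, adjusted p = 0.006). Prkcd, a thalamic marker, was at 333, 297, 10.4, 22.8 and 111 CPM in MBH replicates 1 to 5 of PND42 and at 7.96 to 15.4 CPM in the MBH of PND22. In the POA it was at 42.6, 31.4, 162, 30.3 and 41.9 CPM in replicates 1 to 5 of PND42 and at 13 to 30.4 CPM at PND22. The part of such tissue in these differences was not tested.

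Of the PND22 genes with an absolute log2 fold change of at least 1 without replicate 4, 104 of 234 on the MBH side (44.4%) and 63 of 130 on the POA side (48.5%) were called the same way at PND42, where 1.65% and 1.4% of all genes were called in these directions. The same sign was found for 216 and 122 of them. Npvf was at 16.3 to 43 CPM in the MBH and at most 0.192 CPM in the POA at PND42.

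The comparison with PND90 meets a problem of the labels. Over 53 genes that separate POA libraries of PND22 (without replicate 4) from those of PND90 by an absolute log2 fold change of at least 2, libraries were placed between these groups, with 0 for PND22 and 1 for PND90. The MBH libraries had medians of 0.13 to 0.25 at PND22 and 0.62 to 0.71 at PND42, while the 5 libraries labelled MBH PND90 had 0.08 to 0.23. Gpr17, a gene of newly formed oligodendrocytes that declines with age, was at 97.1 to 118 CPM in the MBH at PND22, at 32.5 to 45.4 CPM at PND42 and at 106 to 136 CPM in the libraries labelled PND90, where the POA had 24.2 to 29.4 CPM. The vehicle libraries labelled MBH PND90 thus had the profile of PND22 in these genes. POA replicate 4 of PND22 had a position of 0.16.

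**Figure D5:**
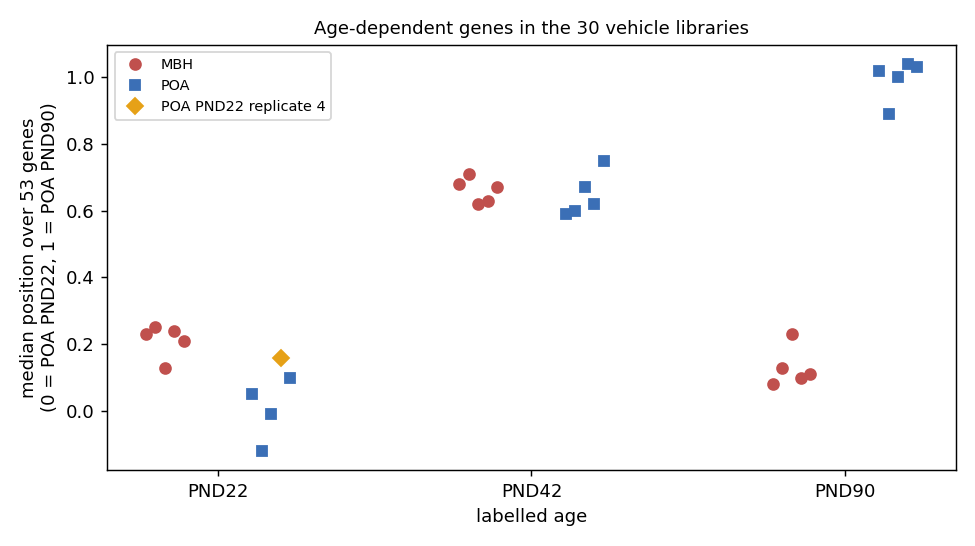
Median position of each of the 30 vehicle libraries over 53 age-dependent genes, from 0 (POA at PND22) to 1 (POA at PND90), by labelled age; circles are MBH, squares POA, and the diamond is POA replicate 4 of PND22. The 5 libraries labelled MBH PND90 lie at 0.08 to 0.23, beside the PND22 libraries.

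With these libraries as labelled, the interaction of tissue and age passed for 2365 of 15088 genes (15.7%), and for 2390 of 15205 without POA replicate 4 (15.7%). The 5 genes per sign that the naming rule gave, among genes with an average of 1 or more in log2 CPM and a call in both fits, were Rps13 (-6.19, SE 1.11), Alox15 (-4.61, SE 0.54), Fcrl2 (-4.41, SE 0.94), Slc4a1 (-4.12, SE 0.73) and Bmp4 (-3.26, SE 0.66) in one direction and C3 (3.01, SE 0.40), Kiss1 (2.78, SE 0.75), RT1-CE7 (2.65, SE 0.65), Aadat (2.48, SE 0.43) and Nat8f3 (2.41, SE 0.42) in the other. Kiss1 was at 0.711 to 1.95 CPM in the libraries labelled MBH PND90 and at 1.84 to 11 CPM in the POA. No direction over age is drawn from these values, since the profile of these MBH libraries goes against their labelled age. Of the regional genes, 150 of 239 on the MBH side (62.8%) and 97 of 130 on the POA side (74.6%) were called the same way, against 13.5% and 13.3% of all genes, and 215 and 126 had the same sign.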

How the data were processed

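Total RNA of MBH and POA tissue was sequenced by the authors on an Illumina instrument after stranded mRNA library preparation. Reads were aligned with STAR to Rnor_6.0 with Ensembl genes and counted with featureCounts in an nf-core pipeline, and the submitters' processing notes name bcl2fastq 2.20. The authors deposited raw counts per gene and library, not normalized, for 32883 genes, and neither the strand setting nor the treatment of reads that map to several places is given in the sources used here. The authors' columns of other exposures were not used.

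Groups were taken from the labels. At PND22 each animal number in the labels occurred in both tissues, and libraries of the same number are taken to come from the same rat. The main fits did not pair them, and fits with this number as a block are given as an alternative. Which litter each pup came from is not given in the sources used here. Genes were filtered with filterByExpr at a minimum count of 10, scaled by TMM, and tested with the quasi-likelihood test of edgeR 4.0.16 in R 4.3.3 with Benjamini-Hochberg adjustment at 0.05, once with all 10 libraries and once without POA replicate 4. The model for age held tissue, age and their interaction. Fold changes are MBH minus POA on the log2 scale. Library positions used log2 of CPM plus 0.5. A group at 0 was given a floor of 3 counts, and ratios with 1 to 3 counts have exact 95% intervals. Depth ranged from 12601314 to 22522907 counts per library.

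Genes were named by rule: members of marker lists with the largest differences, defining a region or against their list, and the 10 genes per direction and 5 per sign of the interaction with the largest coefficients that averaged 1 or more in log2 CPM and were called in both fits. Some genes of the lists and of the rule are not reported here by name, and counts and medians include them. The members and lists were chosen with earlier results of these data known. Alternatives were size factors of DESeq2 in edgeR (RLE), DESeq2 1.42.0, no filter, a replicate block and each library left out. The block is the number that precedes the tissue letter in the labels, taken as the rat. Its adjusted p is printed beside most named genes that lost a call with it. With all 10 libraries and the block in edgeR's test, 5 further named genes lost their call. They were Crh (adjusted p = 0.17), Maob (0.083), Slco1c1 (0.063), Slc6a11 (0.055) and Lhx9 (0.051). Deviations of the same-numbered PND22 libraries from their group means correlated by 0.13, -0.04, -0.06, -0.11 and 0.01. Promoter sequences are from RefSeq (GRCr8).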

Additional observations from a re-analysis of the deposited data

Results flagged for a closer look

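POA replicate 4 was separated from the other POA libraries by a gap that took a large share of the range of the 5 libraries, where a share above 0.71 stands out and chance gives about 1 in 20 groups. As the highest library, its share was 0.791 for Lrat, 0.813 for Tll2, 0.865 for Crym, 0.794 for Ghrh, 0.811 for Stra6, 0.749 for Sox14, 0.725 for Epcam and 0.917 for Dkk2. As the lowest, it was 0.741 for Tbr1 and 0.762 for Zic1, and for the median position between the tissues it was 0.921. Among 119 genes examined, a POA library stood out in 46, and in 45 of them it was replicate 4, while an MBH library stood out in 8. Many of these genes were named for their tissue difference without replicate 4, and Foxb1 had already set that library apart. In such genes a library with levels near the MBH stands out through the choice of genes. The rate of 1 in 20 does not apply to them, and the counts are a description only. In the MBH, replicate 1 was high for Epcam (0.846) and Tbr1 (0.729).

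The tissue difference, MBH minus POA on the log2 scale, differed between PND22 and PND90 by the interaction test for C3 (3.01), Kiss1 (2.78), RT1-CE7 (2.65), Aadat (2.48), Nat8f3 (2.41), Rps13 (-6.19), Alox15 (-4.61), Fcrl2 (-4.41), Slc4a1 (-4.12) and Bmp4 (-3.26). These values rest on libraries labelled MBH PND90 whose age-dependent genes resembled PND22. Between PND22 and PND42, without POA replicate 4, it differed for Maob (0.87), Zic1 (-2.21), Zic4 (-1.71), Oxt (-4.17) and Ucn3 (-3).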

How the results depend on the processing

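DESeq2 called 2202 genes with all 10 libraries, against 1443 in edgeR's test, and 56 against 0 for the interaction with PND42. The other settings (RLE size factors, no filter) kept all counts within 1.5 times, and the position of POA replicate 4 was 0.917 and 0.975 with genes of at least 1 and 3. Leaving out 1 library at a time gave 487 to 2332 genes with all 10 libraries, 1584 to 2659 without POA replicate 4, 0 to 50 for the interaction with PND42 and 1900 to 2752 for that with PND90. In every such fit 429 of the 1443 and 1250 of the 2332 calls were kept. Of 119 genes examined without POA replicate 4, 103 were called, and 3 of these lost the call without the filter and 8 with a replicate block. Of 116 examined with all 10, 55 were called, and 14 lost the call without the filter and 16 with the block.

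With the animal number of the labels as a replicate block, 1205 genes were called with all 10 libraries, 2070 without POA replicate 4 (2053 with the MBH library of the same number also left out), 0 for the interaction with PND42 and 1900 for that with PND90. At PND42 a block by animal number leaves MBH replicate 2 and POA replicate 3 without a partner. Differences near 0 changed sign in some fits that left out 1 library, none of them called in the report: the log2 fold change ranged from -0.03 to 0.16 for Gal, from -0.16 to 0.18 for Sst and from -0.03 to 0.20 for Moxd1 with all 10 libraries, and from -0.03 to 0.19 for Gal, from -0.23 to 0.23 for Sst, from -0.02 to 0.17 for Ppp1r17 and from -0.06 to 0.17 for Moxd1 without POA replicate 4. The cause of these changes was not tested. Depth limits genes near 0 in the shallower POA libraries.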

Other observations

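The sum of 10 oligodendrocyte genes was 29100 and 25600 CPM in POA replicates 2 and 3 and 13500 to 21300 CPM in the MBH and the remaining POA libraries. The pituitary list summed to 38.2 to 122 CPM in the MBH, to 74.7 CPM in POA replicate 4 and to 6.26 to 10.3 CPM in the other POA libraries.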
